A study of Trichoderma harzianum with 18 samples.

Results

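The 87 genes described here are those of *T. harzianum* whose median transcript level in the wild type growing on cellulose stood several times above that of every group lacking cellulose, the regulator XYR1 or both. They are 87 of the 14650 genes measured. They were selected on measured values. With m the median FPKM of the 3 replicate cultures of a group plus 0.5, a gene had to reach an m of 10 in the wild type on cellulose and at least 4 times the m of each of the 5 other groups. Of the 14290 genes with an annotated identifier, 108 met these thresholds. Of these, 21 were left out as part of a fixed list of 24 genes for the use of cellulose, xylan and sugars, *xyr1* included. FPKM are fragment counts scaled to gene length and library size, so levels of different genes can be compared per length.

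The cultures were the wild type on 1% cellulose, Δ*xyr1-2* on 1% cellulose, Δ*xyr1-2* with no carbon source added, the wild type likewise starved, the Δ*xyr1-2* mutant on 25 mM D-fructose and the wild type on 25 mM D-fructose. The mutant is 1 transformant in which *xyr1* was replaced by a hygromycin resistance cassette, and the wild type is its parent strain. All mycelia came from 36 h pre-cultures on D-fructose with peptone and were sampled 18 h after transfer. Each group had 3 replicate cultures, started from separate spore plates. RNA came from whole mycelia, so fewer cells expressing a gene and less RNA per cell cannot be told apart.

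XYR1 is a zinc cluster transcription factor that activates cellulase and xylanase genes in *Trichoderma* when cellulose or its breakdown products are present. Besides the enzymes that cut the main chains of cellulose and xylan, growth on plant cell walls draws on enzymes that remove side groups from xylan and mannan, on transporters that take up the released sugars and on enzymes that feed these sugars into metabolism. In *T. reesei*, a close relative, disaccharide uptake is itself part of cellulase induction.

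The libraries held between 16208381 and 21263103 reads counted on genes. The *xyr1* transcript (Triha1_1126) checked the strain labels. It had at most 0.196 FPKM in the 9 mutant libraries, against 72.6, 144.7 and 273.0 FPKM in the wild type on cellulose, between 59.6 and 64.8 FPKM in the wild type without carbon, and between 25.7 and 40.0 FPKM in the wild type on D-fructose. Some libraries stood apart. Replicate 3 of the wild type on cellulose, which had the highest *xyr1* level, differed from replicates 1 and 2 for many of the members, as described below. On D-fructose, replicate 1 of the mutant gave the highest FPKM of its group for 57 of the 86 members with a read (66.3%), whereas over all 6007 genes at the level of the rule with a read it was the highest for 26.2%. The same excess was smaller in replicate 1 of the mutant on cellulose, the highest for 41.7% of 84 members and 20.9% of all genes. It was also smaller in replicate 1 of the wild type on D-fructose, with 49.4% of the members and 28.0% of all genes. In the mutant on cellulose, replicate 2 was the highest for 34.5% of the members and 47.5% of all genes. Some genes abundant in the wild type on cellulose had their highest trace there. Triha1_513509 had 0.109, 1.05 and 0.0349 FPKM in replicates 1 to 3, and the left-out Triha1_7497 had 0.653, 8.99 and 0.595 FPKM. The cause was not tested.

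Together the 87 genes made up a small share of the transcriptome, and that share was largest in the wild type on cellulose. Their summed FPKM was 17545, 17451 and 20934 in the wild type on cellulose, which was 1.93% ± 0.263 of the total FPKM (SD, n = 3). It was 1069, 1012 and 985 in the mutant on cellulose, between 819 and 864 in the mutant without carbon, and between 845 and 868 in the wild type without carbon. On D-fructose it was 2221, 1030 and 1206 in the mutant, against 1446, 1234 and 812 in the wild type. These sums follow from the rule and are given as a description without a test. The mean in the wild type on cellulose was 18.2 times that of the mutant on cellulose, 22.4 and 21.8 times those of the mutant and the wild type without carbon, and 12.5 and 16.0 times those of the mutant and the wild type on D-fructose. These ratios are of FPKM, which are not scaled for composition, and were not computed with such scaling. The factors for composition (TMM) were 0.795 to 0.821 in the wild type on cellulose. They were 1.17 to 1.28 in the mutant on cellulose and without carbon, and 0.620 to 0.973 on D-fructose. Without replicate 3 the mean sum in the wild type on cellulose was 17498. The sums were close to each other within each group without carbon and, relative to their mean, spread widest in the mutant on D-fructose. The 10 most abundant members made up 57.2% of the sum in the wild type on cellulose.

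**Figure D1:**
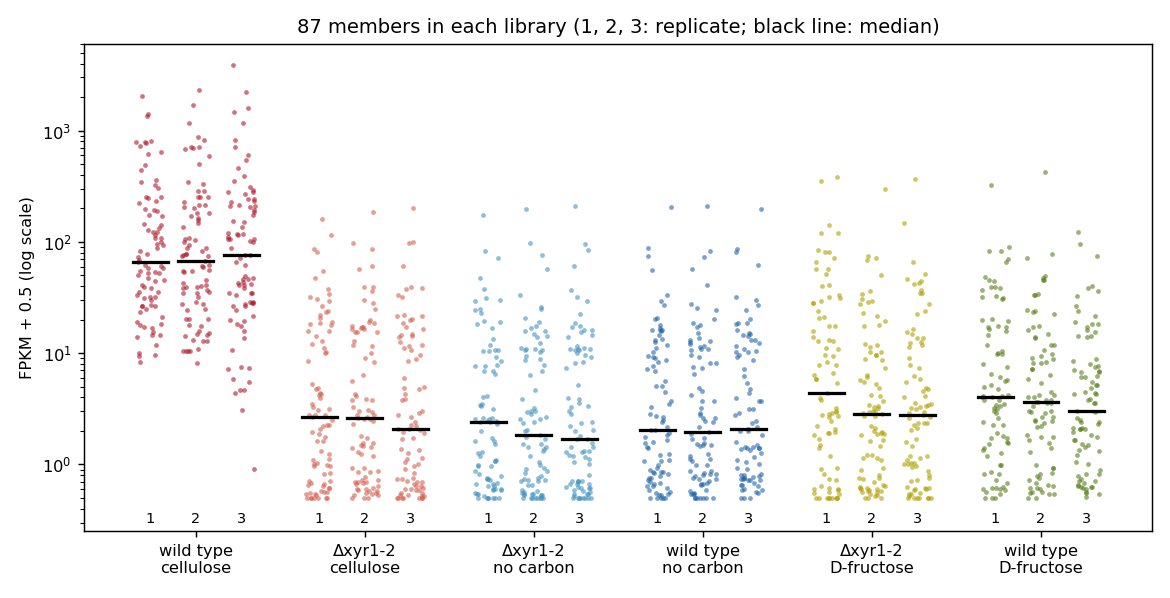
FPKM + 0.5 (log scale) of the 87 members in each of the 18 libraries; each point is 1 gene, the black lines are medians, and the numbers 1 to 3 are replicates. The medians are 65.4 to 75.3 FPKM for the wild type on cellulose and 1.20 to 3.86 FPKM for the other 15 libraries, a difference that the rule fixed.

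The members differed widely in how far they stood above the other groups. The smallest of the 5 ratios had a median of 8.66 and ranged from 4.03 to 996, with 40 genes at 10 or more and 16 below 5. The group closest to the wild type on cellulose was the wild type on D-fructose for 33 members, the mutant on cellulose for 19, the mutant on D-fructose for 17, the wild type without carbon for 13 and the mutant without carbon for 5. Just inside the ratio of 4 were Triha1_8151 (4.03), Triha1_513505 (4.04) and Triha1_507863 (4.07), and just outside were Triha1_534538 (3.92), Triha1_490551 (3.91) and Triha1_4557 (3.91). Near the minimum level, Triha1_534863 was inside with an m of 10.1 and Triha1_509726 outside with 9.21. In 70 of the 87 members all 3 libraries of the wild type on cellulose lay above all 15 others. This was so for 5.36% of the 6013 genes at the level of the rule, but the rule used these values and nothing is read from the difference.

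By annotation, 8 members were plant biomass-degrading (PBD) CAZymes, 3 were transporters of the family PF00083, 3 were enzymes of carbon catabolism and 2 had other entries. The other 71 have no entry in the annotation used here and are named by number alone. That annotation is only a part of the study's gene table, so the counts of each list below cover the genes listed in it and not the full lists. Of the 58 PBD CAZymes listed there, 17 more were among the left-out genes that met the thresholds. The 19 listed genes for cellulose held 9 of the left-out genes and none of the members. The members came from the 26 genes for xylan, with 6 members, and the 4 genes for galactomannan, with 2 members. None of the 5 genes for pectin or the 2 for starch was a member.

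The 6 xylan members all act on side groups of the polymer rather than on its main chain. The left-out list held 8 more xylan genes that met the thresholds, xylanases among them. The lack of main-chain enzymes is therefore set by that list and is not read as a trait of these genes. Triha1_94998 (CBM1 and CE5, annotated as cutinase or acetylxylan esterase) is the best hit of *T. reesei* acetylxylan esterase AXE1, which removes acetyl groups from xylan. It had 358, 251 and 604 FPKM in the wild type on cellulose. In the mutant on cellulose it had 0, 0.891 and 0.0557 FPKM, and in no other library did it exceed 0.261 FPKM. Its smallest ratio, 573, was the second in rank among the members.

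Triha1_494647 (CBM1 and CE15) encodes a glucuronoyl methylesterase, the enzyme that splits ester bonds between xylan and lignin, and is the best hit of *T. reesei* CIP2. It had 81.7, 73.9 and 105 FPKM in the wild type on cellulose, against 0, 0.363 and 0.0363 FPKM in the mutant on cellulose. This was the most even of the 8 PBD CAZymes over the replicates on cellulose.

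A pair of GH67 α-1,2-glucuronidases, which remove glucuronic acid from xylan oligosaccharides, behaved differently outside cellulose. Triha1_509810, the best hit of *T. reesei* α-glucuronidase GLR1, had 47.0, 33.9 and 151 FPKM in the wild type on cellulose and 1.45, 0.967 and 0.651 FPKM in the mutant on cellulose. Triha1_21376, without such a hit, had 17.2, 15.4 and 45.6 FPKM in the wild type on cellulose and at most 0.134 FPKM in the mutant on cellulose. Their levels off cellulose were not alike. For the wild type on D-fructose, Triha1_509810 had 4.30, 7.69 and 18.5 FPKM, whereas Triha1_21376 had at most 0.131 FPKM.

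The remaining xylan members were esterases. Triha1_102504 (CBM1 and CE1) had 52.1, 45.2 and 230.5 FPKM in the wild type on cellulose, against 2.02, 2.13 and 1.60 FPKM in the mutant on cellulose. Triha1_78034 (CE16), the best hit of *T. reesei* acetyl esterase AES1, had 44.4, 40.6 and 173 FPKM in the wild type on cellulose, against 0, 0.0483 and 0 FPKM in the mutant on cellulose. In both genes replicate 3 was the highest by a wide margin.

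The galactomannan members were endo-β-1,4-mannanases, which cut the mannan main chain. Triha1_111861 (CBM1 and GH5_7), the best hit of *T. reesei* MAN1, had 783, 705 and 2242 FPKM in the wild type on cellulose, against 1.25, 3.28 and 1.57 FPKM in the mutant on cellulose. Triha1_99972, a distant member of GH5, had 92.8, 76.7 and 15.5 FPKM in the wild type on cellulose, against 4.32, 5.81 and 5.42 FPKM in the mutant on cellulose. The replicates on cellulose ran in opposite directions, with replicate 3 the highest for Triha1_111861 and the lowest for Triha1_99972.

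The 3 transporters differed in their smallest ratio, which was 41.3 for 1 of them and close to the minimum for the others. Triha1_502689, the best hit of Trire2_3405, which is known as CRT1 in *T. reesei* and is needed there for cellulase induction, was the most abundant member. It had 2054, 2338 and 3912 FPKM in the wild type on cellulose, 80.3, 56.1 and 37.7 FPKM in the mutant on cellulose, and between 7.37 and 13.9 FPKM in the other 12 libraries. Triha1_4515, annotated in the same sugar transporter group, had 95.4, 54.6 and 115 FPKM in the wild type on cellulose and 21.7, 16.0 and 18.2 FPKM in the mutant on cellulose, with a smallest ratio of 4.25. Triha1_491362, whose transporter class is that of phosphate symporters, had 254, 171 and 49.3 FPKM in the wild type on cellulose and 15.4, 16.6 and 19.7 FPKM in the mutant on cellulose. On D-fructose its levels reached 80.7 FPKM in the mutant and 36.7 FPKM in the wild type, so its groups overlapped. Of the 90 PF00083 genes listed, 3 more were among the left-out genes that met the thresholds.

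Among the 93 carbon catabolic enzymes listed, the 3 members belong to different pathways. Triha1_74604, annotated as *araB* of the alternative L-arabinose pathway and as a gluconolactonase, which opens sugar lactones, had 344, 333 and 294 FPKM in the wild type on cellulose, while the 15 other libraries held 13.1 to 24.6 FPKM. Triha1_83864, listed under glycolysis and annotated as an aldose 1-epimerase, which interconverts the anomers of sugars, had 443, 500.5 and 278 FPKM in the wild type on cellulose, 86.2, 98.0 and 99.0 FPKM in the mutant on cellulose, and between 27.9 and 96.2 FPKM elsewhere. Triha1_535255, annotated as an ortholog of *oahA*, which in *Aspergillus* splits oxaloacetate to oxalate, had 22.9, 24.2 and 34.5 FPKM in the wild type on cellulose. It had 27.7 FPKM in replicate 1 of the mutant on D-fructose and at most 5.07 FPKM in the other 14 libraries, so that 1 library kept its groups from separating. Of the members with other entries, Triha1_477022 encodes a short-chain dehydrogenase, with 8.92, 14.1 and 42.4 FPKM in the wild type on cellulose and at most 0.609 FPKM elsewhere. Triha1_4165, which has a *T. reesei* best hit but no domain, had 122, 105 and 101 FPKM in the wild type on cellulose, while the other libraries held 9.13 to 23.4 FPKM.

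Most of the highest levels belonged to genes without an entry. After the transporter Triha1_502689, the median levels in the wild type on cellulose were 1422 FPKM for Triha1_8151, 1351 FPKM for Triha1_107669, 808 FPKM for Triha1_500536, 783 FPKM for the mannanase Triha1_111861, 781 FPKM for Triha1_502198, 769.8 FPKM for Triha1_113501, 726 FPKM for Triha1_507309, 642 FPKM for Triha1_504078 and 615 FPKM for Triha1_513509. These genes were not alike in their level without cellulose or XYR1. Triha1_8151 had 161, 185 and 199 FPKM in the mutant on cellulose and up to 421 FPKM in the wild type on D-fructose. Triha1_513509 had 615, 590.5 and 1158 FPKM in the wild type on cellulose and at most 1.05 FPKM in any other library, which gave it the largest ratio of all members, 996.

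The other members with large ratios did not all come as close to the limit of detection. Triha1_502198 had a smallest ratio of 193, with 781, 688.5 and 815 FPKM in the wild type on cellulose and at most 0.922 FPKM in the mutant on cellulose. Next in rank were the esterase Triha1_494647 with 129, Triha1_484109 with 83.7, Triha1_503468 with 64.4, Triha1_113501 with 54.5, Triha1_107669 with 48.0 and Triha1_495902 with 46.8. Triha1_113501 and Triha1_107669 kept between 13.6 and 30.3 FPKM in the mutant on cellulose. Triha1_503468 had no read in any library of the mutant on cellulose and at most 3 reads in any of the other groups' 12 libraries, against 284, 223 and 1895 reads in the wild type on cellulose. The gene bodies of the members had a median length of 1641 bp, and those of all 14294 genes in the reference annotation had 1340 bp.

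The replicates of the wild type on cellulose split the members into sets. The ratio of replicate 3 to the mean of replicates 1 and 2 (each with 0.5 FPKM added) ranged from 0.0554 to 14.3, with a median of 1.11. It was below 0.5 in 24 members (27.6%), between 0.5 and 2 in 44 (50.6%) and over 2 in 19 (21.8%). Over the 6013 genes at the level of the rule, 16.3% were below 0.5 and 8.27% over 2. At the wider limits, 18 members were below 0.25 (20.7%, against 3.34% of the 6013 genes) and 8 were over 4 (9.20%, against 1.85%). These shares are a description of 3 libraries, since the rule used their median.

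At the low end, Triha1_492020 had 107, 155 and 6.80 FPKM in the wild type on cellulose, and Triha1_534863 had 9.60, 17.2 and 0.401 FPKM. Replicate 3 of Triha1_492020 lay below the mutant on cellulose, which had 7.80 to 9.74 FPKM, so its groups overlapped. Abundant members were among these genes. Triha1_8151 had 1422, 1712 and 243 FPKM, Triha1_507309 had 726, 820.4 and 76.4 FPKM, and Triha1_504078 had 642, 713 and 61.0 FPKM in the wild type on cellulose. Replicate 3 of Triha1_507309 lay below the mutant on cellulose, which had 86.3 to 115.6 FPKM. That of Triha1_8151 lay below D-fructose values of up to 421 FPKM, so the groups of both genes overlapped. That of Triha1_504078 lay above all 15 libraries of the other groups. In 10 of the 24 members below 0.5, replicate 3 was still above all 15 libraries of the other groups.

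At the high end, Triha1_88968 had 16.3, 12.5 and 212 FPKM in the wild type on cellulose, and Triha1_513285 had 24.6, 9.95 and 207 FPKM. Triha1_513285 did not meet the rule without replicate 3. Its replicate 2 lay below D-fructose values of up to 15.3 FPKM, so its groups overlapped. Replicate 3 was above all 15 other libraries in each of the 19 members over 2. These 19 held 5 of the 8 PBD CAZymes, whereas the 24 below 0.5 held 1, the mannanase Triha1_99972. Of the 71 members without an entry, 13 were over 2 and 22 below 0.5. The 21 left-out genes that met the thresholds had a median ratio of 3.30, with 14 over 2 and 2 below 0.5. The rank of replicate 3 was shared by *xyr1*, with a ratio of 2.51. Whether the level of *xyr1*, the state of that culture or another property of the library had a part in this was not tested.

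**Figure D2:**
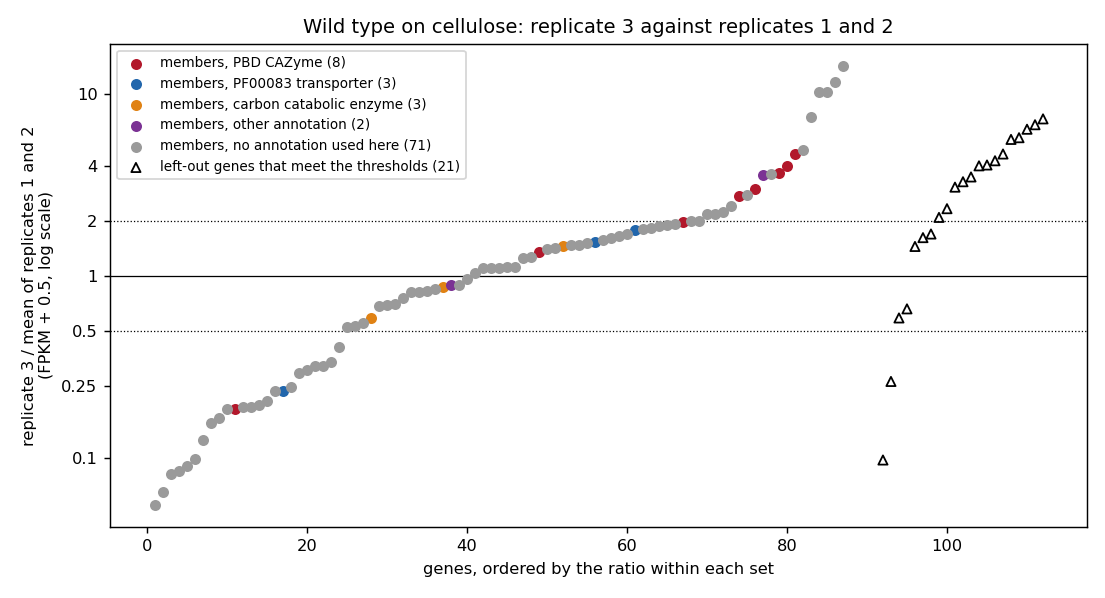
Ratio of replicate 3 to the mean of replicates 1 and 2 (FPKM + 0.5, log scale) in the wild type on cellulose for the 87 members, coloured by annotation, and for the 21 left-out genes that met the thresholds (triangles); dotted lines mark 0.5 and 2. The members run from 0.0554 to 14.3, with 24 below 0.5 and 19 over 2.

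The selection itself depended on these replicates. Without replicate 3, 96 genes met the rule, 83 of which were members. Without replicate 1 there were 117 and without replicate 2 there were 118, with 72 members in each. When every library of the wild type on cellulose had to reach an m of 10 and 4 times every other library, 37 of the 87 remained. Among these 37 are Triha1_513509, Triha1_94998, Triha1_111861, Triha1_502198, Triha1_494647 and Triha1_502689.

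Many of the members lay side by side in the genome, a property that the rule did not use. The annotation used gives positions but no scaffold names, so scaffold ends were placed where start positions fall in its order, and all neighbours and gaps rest on this. A direct neighbour within 10000 bp was itself a member for 27 of the 87 (31.0%), whereas 0.992% of the 14207 other annotated genes, and 0.827% of the 5926 other genes at the level of the rule, had a member as direct neighbour. With the left-out genes included, 30 members (34.5%) had such a neighbour. The 15 direct pairs of members had a median gap of 1061 bp. The widest gap was 3823 bp, and Triha1_503353 and Triha1_205751 overlapped by 128 bp, so reads in the shared stretch cannot be told apart.

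A run of 3 members reached up to *xyr1* itself (assembly Triha v1.0, bases 3812710 to 3815646 of its scaffold). Triha1_503353 (3802463 to 3803398), Triha1_205751 (3803271 to 3804680) and Triha1_73544 (3808504 to 3809312) were the 3 genes before *xyr1*, and the last of them ended 3397 bp from it. Triha1_73544 had 123, 182 and 226 FPKM in the wild type on cellulose, against 23.4, 16.0 and 15.8 FPKM in the mutant on cellulose. Without carbon it had 9.94, 14.4 and 15.0 FPKM in the mutant, against 13.0, 11.7 and 14.1 FPKM in the wild type, so these groups overlapped. The same was so for Triha1_503353, with 6.46, 9.73 and 10.3 FPKM in the mutant without carbon, against 8.89, 11.1 and 11.2 FPKM in the wild type. Triha1_205751 had 8.65, 10.3 and 11.0 FPKM in the mutant without carbon, against 12.6, 12.2 and 12.7 FPKM in the wild type, with no overlap. None of the 3 was called between the strains without carbon or on D-fructose. On D-fructose Triha1_73544 had 56.1, 11.7 and 14.4 FPKM in the mutant, against 16.9, 14.3 and 17.9 FPKM in the wild type. Whether the cassette at *xyr1* had a part in their level on cellulose was not tested. The fourth gene before *xyr1*, Triha1_1124, was no member, with 13.8, 13.9 and 16.3 FPKM in the wild type on cellulose and 31.8, 37.2 and 36.7 FPKM in the mutant on cellulose.

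Other runs joined members to known cellulase and xylanase genes. Triha1_513509 and Triha1_127782 followed Triha1_99387, a lytic polysaccharide monooxygenase that oxidizes cellulose chains, with gaps of 750 and 1379 bp. The esterase Triha1_494647 lay 2100 bp from the xylanase Triha1_85618. Triha1_484109 lay 2530 bp from the xylanase Triha1_147762. Triha1_525479 and the glucuronidase Triha1_21376 preceded the xylanase Triha1_525481, which overlaps Triha1_21376 by 56 bp, and the left-out transporter Triha1_513737 began 3032 bp past Triha1_21376. Triha1_479707 lay 1998 bp from the left-out transporter Triha1_79806. The transporters among the members had such partners too, since Triha1_502689 lay 2146 bp from the dehydrogenase Triha1_477022 and Triha1_4515 lay 1075 bp from Triha1_113501.

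Neighbours often shared the replicate pattern on cellulose. In 13 of the 15 direct pairs both genes lay on the same side of 1 in the ratio of replicate 3. The same share was not computed for other adjacent genes, so it is not read as particular to the members. Triha1_526018 and Triha1_526019, 175 bp apart, had ratios of 0.0815 and 0.0845, and Triha1_514281 next to them had 0.337. Triha1_124622, Triha1_124624 and Triha1_19992 had 0.167, 0.125 and 0.233. At the other end, Triha1_513285 and Triha1_127128, 790 bp apart, had 11.7 and 10.3, and neither met the rule without replicate 3. The exceptions were Triha1_502198 with Triha1_71613 (1.11 and 0.681) and Triha1_21292 with the mannanase Triha1_99972 (2.19 and 0.187). Several pairs share a gene with another pair, so the 15 are not independent.

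**Figure D3:**
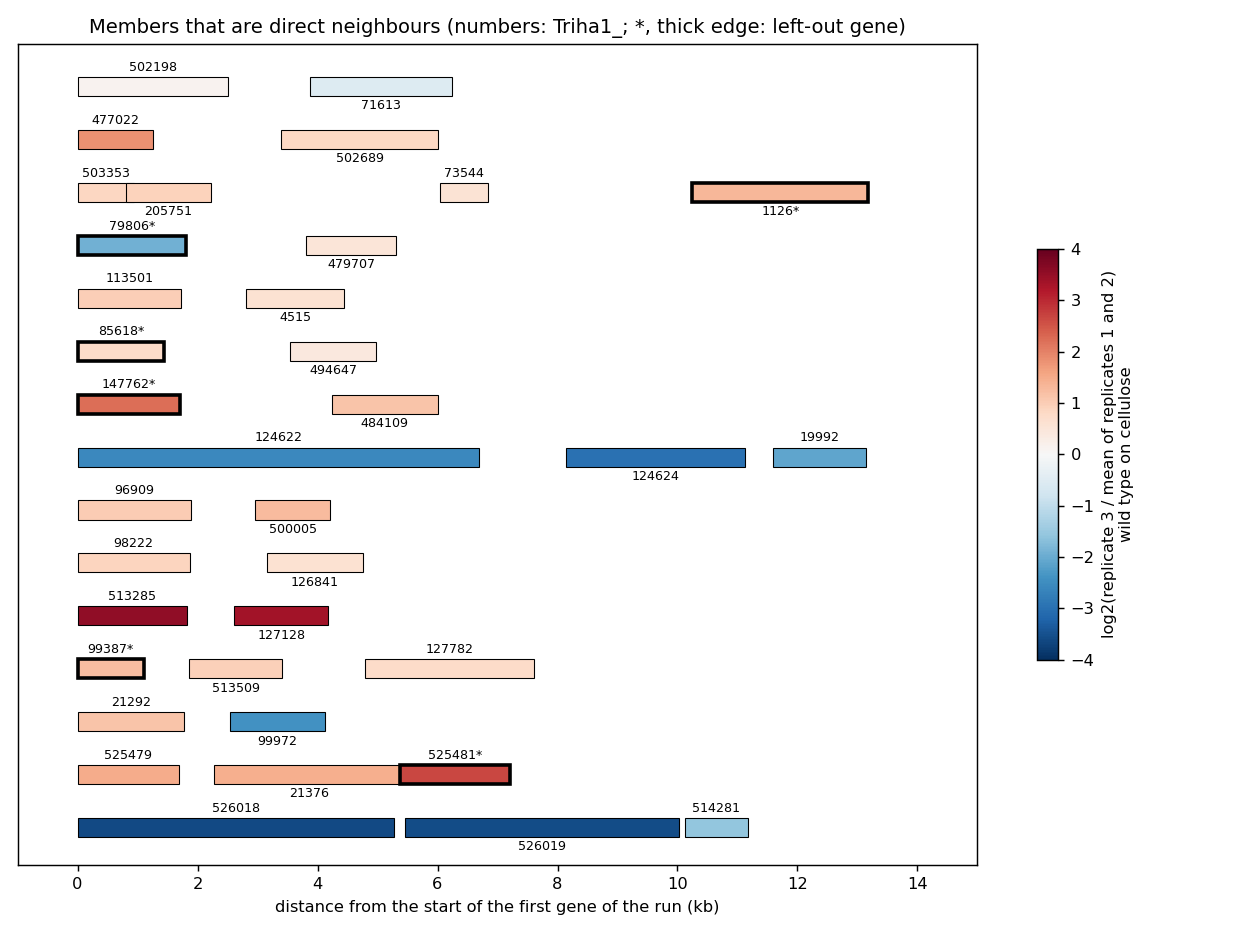
Runs of members that are direct neighbours of another member or of a left-out gene (thick edge, asterisk), drawn to scale as distance in kb from the start of the first gene; the colour is log2 of the ratio of replicate 3 to the mean of replicates 1 and 2 in the wild type on cellulose. In 13 of the 15 direct pairs of members the colours are on the same side of 0, a count without a share over other adjacent genes.

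The comparisons of the strains away from cellulose asked how the low levels of these genes there differ with XYR1 missing. A gene was called where the adjusted p was below 0.05, the change was more than 2-fold and a group mean exceeded 1 FPKM. Fold changes are fitted to the counts of 3 libraries per group, mutant over wild type, relative to the bulk of the genes. Without carbon, 2 members were called, and both are xylan side-group enzymes that were lower in the mutant. Triha1_509810, the α-glucuronidase, had 0.801, 0.868 and 0.665 FPKM in the mutant, against 3.95, 2.72 and 3.45 FPKM in the wild type. The groups did not overlap, with a log2 fold change of -2.10 ± 0.208 (SE) and an adjusted p of 0.0103 in edgeR. Triha1_102504, the CE1 esterase, had 0.775, 1.28 and 0.693 FPKM in the mutant, against 4.59, 3.69 and 4.23 FPKM in the wild type, with a log2 fold change of -2.16 ± 0.270 and an adjusted p of 0.0306. They rest on between 12 and 46 reads per library in the mutant and 63 and 215 in the wild type.

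These calls were 2 of the 63 members tested (3.17%), while 0.132% of the 11387 genes tested were called lower. The other 24 members did not pass the filter on low counts. The median log2 fold change was -0.04 over the members tested and 0.01 over all genes, and no member was called higher. The mutant libraries without carbon also serve in the comparisons with cellulose and with D-fructose below, so these share samples. DESeq2 called the same 2 genes. The call of Triha1_102504 was lost whichever of the 6 libraries was left out, with adjusted p between 0.0642 and 0.212, and that of Triha1_509810 without replicate 2 or 3 of the mutant or replicate 1 or 3 of the wild type, with adjusted p between 0.0539 and 0.0855. Neither was called in a fit of all 18 libraries.

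On D-fructose no member was called between the strains in edgeR, among 69 tested, and 0.00917% of the 10908 genes tested were. At an unadjusted p under 0.05 there were 10 of the 69 members and 878 of the 10908 genes. DESeq2 called 3 members as lower in the mutant, Triha1_509810, Triha1_484109 and Triha1_507253, while it called 0.146% of its 13743 genes as lower. Triha1_509810 had 0.0672, 1.47 and 0.451 FPKM in the mutant, against 4.30, 7.69 and 18.5 FPKM in the wild type, with a log2 fold change of -3.77 ± 0.884 and an adjusted p of 0.503 in edgeR. Triha1_484109 had 0.322, 0.143 and 0.111 FPKM in the mutant, against 1.78, 2.14 and 6.36 FPKM in the wild type, with a log2 fold change of -3.86 ± 0.731 and an adjusted p of 0.443 in edgeR. Neither gene's groups overlapped, and the wild-type replicates of each spread over more than 3 times. The strain difference was not called as different between the conditions without carbon and with D-fructose for any of 76 members or 11826 genes (0%) by the interaction term in edgeR. At an unadjusted p under 0.05 there were 7 of the 76 members and 973 of the 11826 genes, so nothing is read from the 7. DESeq2 called no member either.

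Comparing the mutant on cellulose with the mutant without carbon asked what response to cellulose remains without XYR1. Of 62 members tested, 4 were called, all higher on cellulose (6.45%), against 0.0782% of the 11509 genes tested. This fit did not pair the replicates, and fewer members were called with the replicate number as a block, as given below. The transporter Triha1_502689 had 80.3, 56.1 and 37.7 FPKM in the mutant on cellulose, against 7.37, 8.32 and 7.66 FPKM in the mutant without carbon, a log2 fold change of 2.90 ± 0.281 with an adjusted p of 0.0176 in edgeR. In the wild type on cellulose it had 2054 FPKM or more.

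Triha1_493809, without an entry, had 31.4, 39.2 and 32.6 FPKM in the mutant on cellulose, against 6.45, 6.41 and 6.81 FPKM in the mutant without carbon, with a log2 fold change of 2.37 ± 0.0947 and an adjusted p of 4.81e-05. It had 303, 286 and 244 FPKM in the wild type on cellulose. Triha1_107669 had 30.3, 27.6 and 21.2 FPKM in the mutant on cellulose, against 8.01, 8.96 and 10.3 FPKM without carbon, with a log2 fold change of 1.53 ± 0.170 and an adjusted p of 0.0317. The mannanase Triha1_99972 had 4.32, 5.81 and 5.42 FPKM on cellulose, against 0.476, 1.18 and 0.797 FPKM without carbon, with a log2 fold change of 2.62 ± 0.287 and an adjusted p of 0.0317. In none of the 4 did the groups overlap.

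With the replicate number as a block, 2 of the 4 were called, Triha1_502689 and Triha1_493809, while Triha1_107669 and Triha1_99972 had adjusted p of 0.202 and 0.0808. Triha1_493809 was called whichever of the 6 libraries was left out. It was the only 1 called when replicate 2 on cellulose or any library without carbon was left out. DESeq2 called 6 members as higher, which added Triha1_111861 and Triha1_105252, and 0.116% of its 13845 genes. The mannanase Triha1_111861 had 1.25, 3.28 and 1.57 FPKM in the mutant on cellulose, against 0.465, 0.224 and 0.113 FPKM without carbon. Its highest value on cellulose was in replicate 2, the library described above. Over the members tested the median log2 fold change was 0.25, and over all genes it was 0.01.

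**Figure D4:**
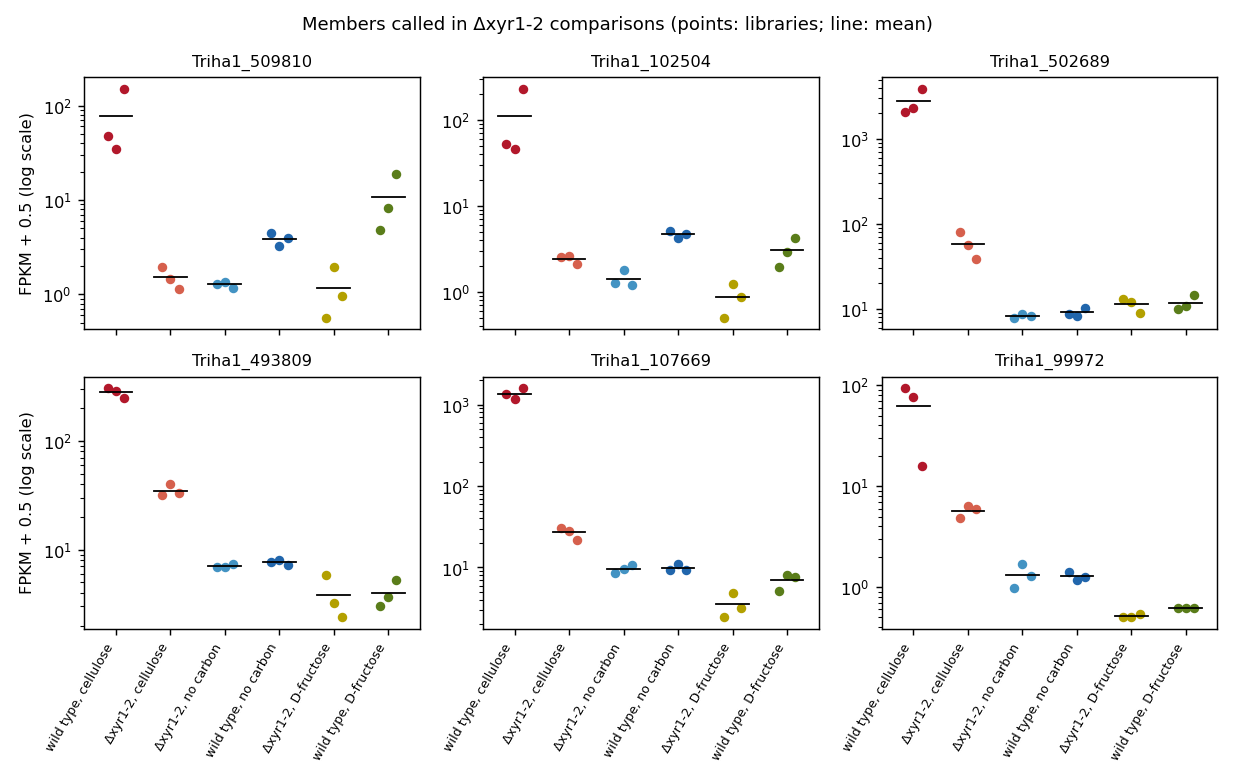
FPKM + 0.5 (log scale) in each library of the 6 members called between the strains without carbon (Triha1_509810, Triha1_102504) or in the mutant on cellulose against no carbon (Triha1_502689, Triha1_493809, Triha1_107669, Triha1_99972); points are libraries and lines are means. The mutant lies below the wild type without carbon in the first 2 panels, and the mutant on cellulose lies above the mutant without carbon in the other 4.

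Starved cultures were compared with D-fructose cultures within each strain; these contrasts hold no cellulose library. More members were lower without carbon than higher. In the mutant, 31 of 66 tested were lower (47.0%) and 5 higher (7.58%), while 20.3% of the 11312 genes tested were lower and 18.7% higher. In the wild type, 27 of 71 tested were lower (38.0%) and 7 higher (9.86%), while 15.5% of the 11453 genes tested were lower and 14.4% higher. A member with few reads passes the filter only through the group where it is high, so these shares describe the members tested and not all 87. The median log2 fold change of the members tested was -1.35 in the mutant and -0.77 in the wild type.

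The 2 strains share no library in these comparisons. Of the members called lower, 21 were called in both strains, which is 67.7% of the mutant's and 77.8% of the wild type's. Of those called higher, 4 were called in both strains, 80.0% of the mutant's and 57.1% of the wild type's, and none was called in opposite directions. Over all genes called, those shared by both strains were 61.9% of the mutant's and 79.9% of the wild type's lower calls, and 62.7% and 80.5% of the higher calls, so the members' overlap is not read as particular to them. With scaling by library size alone the median of all genes moved to 0.73 in the mutant and 0.42 in the wild type, and the calls became 21 lower and 10 higher in the mutant and 24 lower and 10 higher in the wild type. That scaling moved the median of all genes to -0.29 between the strains on D-fructose and to 0.30 for the interaction. Without replicate 1 on D-fructose, 33 members were called in the mutant, in place of 36.

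Some of the largest falls belonged to neighbours. Triha1_127128 had 0.0438, 0.0361 and 0 FPKM without carbon in the mutant, against 70.5, 10.9 and 16.0 FPKM on D-fructose, with a log2 fold change of -10.81 ± 1.42 and an adjusted p of 0.000942 in edgeR. The wild type had 0.0351, 0.0430 and 0.233 FPKM without carbon, against 39.1, 15.6 and 3.06 FPKM on D-fructose, with a log2 fold change of -7.80 ± 1.20 and an adjusted p of 0.00181. Its neighbour Triha1_513285 had log2 fold changes of -7.65 in the mutant and -8.13 in the wild type. The pair with the largest ratios of replicate 3 among the 15 was thus also nearly silent in all starved cultures and in the mutant on cellulose, where neither exceeded 0.427 FPKM.

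Triha1_498178 and Triha1_122134, with 1 gene between them, showed the same order. Triha1_498178 had 0.232, 0.211 and 0.124 FPKM without carbon in the mutant, against 40.0, 8.21 and 12.05 FPKM on D-fructose, and fell by 7.57 on the log2 scale. The wild type had 0.354, 0.308 and 0.301 FPKM without carbon, against 31.5, 13.1 and 7.92 FPKM on D-fructose, and fell by 6.16. Triha1_122134 fell by 4.90 in the mutant and by 5.38 in the wild type, to at most 2.52 FPKM without carbon, against at least 29.1 FPKM on D-fructose. Triha1_479707 fell by 7.42 in the mutant and by 5.02 in the wild type, and Triha1_126841 by 6.48 and 4.70. The replicates on D-fructose did not overlap with those without carbon in these genes, although they spread widely, and replicate 1 was the highest of the mutant's 3 D-fructose libraries in each.

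The rises were fewer. Triha1_71613 had 29.3, 13.9 and 13.5 FPKM without carbon in the mutant, against 0, 0.120 and 0.0495 FPKM on D-fructose, with a log2 fold change of 7.62 ± 0.654 and an adjusted p of 0.000201. The wild type had 15.2, 6.81 and 12.7 FPKM without carbon, against 0.102, 0.0496 and 0.0514 FPKM on D-fructose, with a log2 fold change of 6.98 ± 0.487 and an adjusted p of 6.37e-05. Its direct neighbour Triha1_502198 went the other way in the wild type, with 1.35, 0.581 and 1.35 FPKM without carbon, against 3.54, 2.19 and 6.25 FPKM on D-fructose and a log2 fold change of -2.25 ± 0.484 (adjusted p = 0.00774). The other members called higher in both strains were Triha1_414920, Triha1_205751 and Triha1_105252, with log2 fold changes between 1.24 and 1.75. In the mutant alone Triha1_507253 was called higher (2.49 ± 0.537, adjusted p = 0.00706). In the wild type alone Triha1_526018 (3.19 ± 0.602, adjusted p = 0.00440), Triha1_113501 (1.53 ± 0.237) and Triha1_514281 (1.51 ± 0.215) were, and a difference between the strains was not called for any of them.

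**Figure D5:**
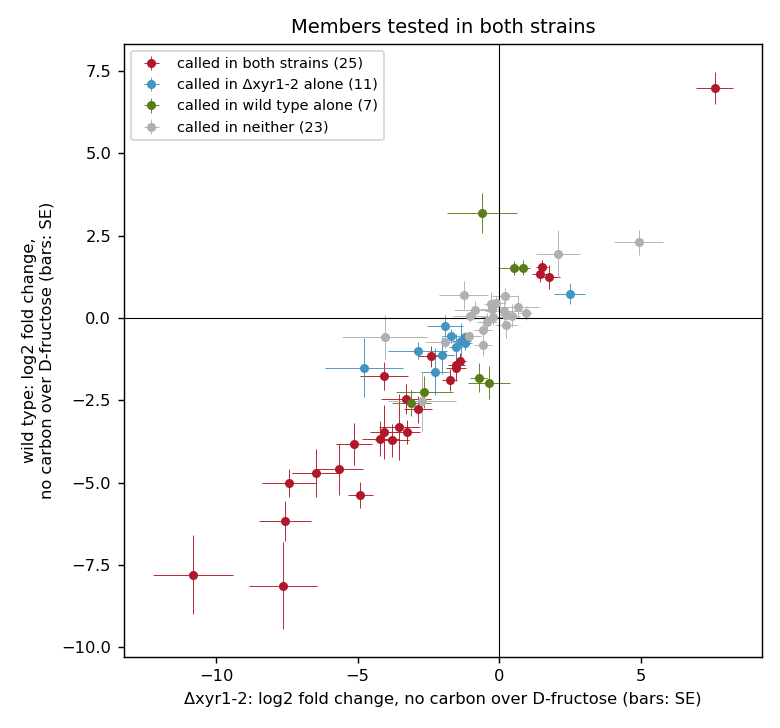
Fitted log2 fold change without carbon over D-fructose in the Δ*xyr1-2* mutant (horizontal) and in the wild type (vertical) for the 66 members tested in both; points are genes, bars are SE, and colours show in which strain a gene was called. The 25 members called in both strains lie in the lower left and upper right, with Triha1_127128 at -10.81 and -7.80 and Triha1_71613 at 7.62 and 6.98.

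The gene lists from which the annotated members come gave the following counts over all their tested genes. Of the PBD CAZymes, 30 were tested between the strains without carbon and 4 were called lower in the mutant, 2 of them the members named above. Over all genes tested, 0.132% were called lower there. In the mutant on cellulose against no carbon, 28 were tested and Triha1_99972 was the only one called, while 0.0782% of all genes were called higher. Of the PF00083 transporters, 78 were tested in that comparison and 2 were called higher, with Triha1_502689 as the only member. Without carbon against D-fructose, 24 of these transporters were higher and 10 lower of 75 in the mutant. In the wild type, 23 were higher and 11 lower of 76. Over all genes tested, 18.7% were higher and 20.3% lower in the mutant, and 14.4% and 15.5% in the wild type. The median log2 fold change of the list was 0.85 in the mutant and 0.49 in the wild type, against 0.045 and 0.039 over all genes. The 3 transporter members lay on the other side. Triha1_491362 was called lower in the mutant (-2.42 ± 0.455, adjusted p = 0.00398) and in the wild type (-1.16 ± 0.318, adjusted p = 0.0205), where its groups overlapped. Triha1_4515 (-1.71 ± 0.319, adjusted p = 0.00384) and Triha1_502689 (-1.22 ± 0.252, adjusted p = 0.00590) were called lower in the mutant. Of the carbon catabolic enzymes, 33 were lower and 4 higher of 90 in the mutant without carbon. In the wild type, 12 were lower and 3 higher of 91. The shares over all genes given above apply to these counts too.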

How the data were processed

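The data are 18 RNA-seq libraries, with 6 groups of 3 replicate flasks. The authors cleaned the paired-end reads, mapped them with STAR (2.5.2b) to the wild-type genome and tallied them per gene with HTSeq (0.5.4). The deposited counts are whole numbers. FPKM, also deposited by the authors, are scaled for gene length and library size, but not for composition. Whether counting used the strand is not given in the sources used here.

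The members were selected on FPKM, and the rule, the lists and the genes named were chosen with earlier results of these data known. The genes named are the annotated members, the 10 with the highest level, the 10 with the largest ratio, those nearest the thresholds, up to 5 called members in each direction of each comparison, the neighbouring members and those at the extremes of replicate 3. Annotations come from the study's supplementary gene table, of which a part was used here. Positions come from the reference annotation of assembly Triha v1.0, matched by number for all 87 members.

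Comparisons that the rule did not use were tested on the counts of all genes by quasi-likelihood F-test in edgeR 4.0.16 (R 4.3.3), with TMM normalization, the filterByExpr filter and Benjamini-Hochberg adjustment. Each fit used the 6 libraries of its groups, and the interaction used 12. Calls needed an adjusted p below 0.05, more than a 2-fold change and, except for the interaction, a group mean above 1 FPKM. DESeq2 1.42.0, RLE factors, library size scaling, no filter, all 18 libraries in one fit, the replicate block, dropping the FPKM criterion, an adjusted p below 0.01 and the omission of each library were the alternatives. The test was tried on simulated counts. Other values and the plots were made in Python 3.11.15 with pandas 2.3.3, numpy 2.4.6 and matplotlib 3.10.9.

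According to the study's methods each set of replicate pre-cultures came from its own spore plate, so within a strain the replicate numbers pair the cultures. Deviations from the group mean were correlated across genes between libraries with the same number, with a Pearson's r of 0.25, 0.26 and 0.18 between the mutant on cellulose and without carbon. They had an r of -0.07, 0.12 and 0.01 between the wild type without carbon and on D-fructose, and of -0.01, 0.07 and -0.10 in the mutant. Product names, protein sequences and promoters were not analysed here.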

Additional observations from a re-analysis of the deposited data

How the results depend on the processing

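For the comparisons without carbon against D-fructose and for the interaction, the total of members called stayed within 1.5 times under every alternative run, although scaling by library size gave 10 higher calls in the mutant in place of 5. Leaving out each library gave between 31 and 42 members in the wild type, between 32 and 43 in the mutant and 0 for the interaction. Between the strains on D-fructose, 0 members were called, but 3 with DESeq2 and 3 with all 18 libraries in one fit. Between the strains without carbon, the 2 calls became 0 with all 18 libraries, with an adjusted p under 0.01 and with the replicate block, and between 0 and 1 when each library was left out. For these strain comparisons the replicate numbers did not pair the cultures. Same-numbered libraries had an r of 0.09, -0.01 and 0.00 without carbon and 0.47, 0.10 and -0.05 on D-fructose, and 3 and 2 of the 6 libraries correlated best with their own number. In the mutant on cellulose against no carbon, 6 of the 6 libraries correlated best with their own number. The 4 calls there became 2 with the replicate block and 1 with an adjusted p under 0.01. They became between 1 and 3 when each library was left out. Apart from this comparison and that of the strains without carbon, the block changed no count by over 1.5 times. The 87 members became 47 at a fold of 8 and 37 when every library had to separate 4-fold, and were 96 to 118 without each replicate on cellulose. Rescaling by TMM factors gave 102 members and a summed FPKM of 23074 in the wild type on cellulose, while leaving out each replicate there gave sums of 17498 to 19239. The cause was not tested. A tally over the settings covered, in each comparison, up to 5 called members in each direction with the largest fold change and no overlap. Of their calls 328 were kept, 36 were lost and none changed direction. The 36 losses were all between the strains without carbon or in the mutant on cellulose against no carbon. Other calls named above, such as that of Triha1_491362 in the wild type, are outside this tally. Members with few reads did not pass the filter on low counts and were not tested.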
